A study of Mus musculus with 8 samples.

Results

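The nuclear genes of respiratory complexes II, III, IV and V were examined in RNA seq of whole cochleae from mice heterozygous for a knock-in Opa1 allele. Members were the genes whose symbols begin with Sdha to Sdhd, Sdhaf, Uqcr, Uqcc, Cyc1, Cycs, Cox followed by a digit, or Atp5, with symbols containing -ps left out as pseudogenes. Of 47502 distinct symbols, 65 were members. They comprised 8 genes of complex II, 12 of complex III, 27 of complex IV, 16 of complex V, the gene of the electron carrier cytochrome c (Cycs) and Atp5sl, whose product assists complex I in spite of its name. In all, 63 members passed the minimum of a mean normalized count over 10. Cox7b2 and Cox8c, testis isoforms of complex IV, did not.

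Complex II (succinate dehydrogenase) passes electrons from succinate to ubiquinone, complex III (the cytochrome bc1 complex) passes them to cytochrome c, and complex IV (cytochrome c oxidase) passes them to oxygen. Complexes III and IV pump protons, and complex V (ATP synthase) uses the gradient to make ATP. Complex II is built from nuclear genes alone, while complexes III, IV and V also hold subunits encoded in mitochondrial DNA. Opa1, a GTPase of the inner membrane, fuses that membrane and shapes the cristae in which these complexes sit. Several complex IV subunits exist as pairs of isoforms, a widely used form and a form of muscle, lung or testis.

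The labels name the 4 wild-type (WT) libraries WT_4, WT_5, WT_6 and WT_8, and the 4 heterozygous Opa1+/- libraries Het_2, Het_7, Het_484 and Het_491, by animal number. The mutated allele is a germline knock-in of the human delTTAG deletion on a mixed genetic background, and the controls were WT littermates. All mice were 21 days old and untreated, and each library came from a single animal. The labels name TRI Reagent or an RNeasy kit for RNA extraction without saying which mouse had which, and they do not place the mice in litters.

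Counts on named genes ranged from 15978051 to 20828030 per mouse, of which the members took 121553 to 162337 counts. Levels are CPM, counts scaled to a common library size with TMM factors. Opa1 ranged from 112 to 126 CPM in WT mice and from 60.4 to 70.0 CPM in Opa1+/- mice, and its log2 fold change was -0.87 ± 0.07 (SE, n = 4 and 4, edgeR adjusted p = 0.0051), so each library carried the Opa1 level of its label. Markers of hair cells, spiral ganglion neurons, Schwann cells and stria vascularis were all detected in every mouse, 10 of 10 in each list. Skeletal muscle markers, 20 of 20, and 7 of 8 brown adipocyte markers were detected in every mouse too, with sums that differed widely between mice of the same genotype. In bulk cochlea, fewer cells of a type and less RNA per cell cannot be told apart.

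Per kilobase of principal transcript and averaged over the 8 mice, levels spanned a wide range within each complex. The highest levels belonged to Cox4i1, subunit 4 of complex IV, at 437 CPM per kilobase, to Atp5b, the catalytic beta subunit of ATP synthase, at 437 CPM per kilobase, and to Cox6a1, the liver form of subunit 6a, at 432 CPM per kilobase. In complex III, the hinge protein gene Uqcrh was highest among the subunits at 372 CPM per kilobase, and Cyc1, cytochrome c1, was lowest at 53.3 CPM per kilobase. The complex II subunits lay lower, between 20.2 CPM per kilobase for the membrane anchor Sdhc and 121 CPM per kilobase for the iron-sulfur protein Sdhb. The lowest tested subunit was Cox4i2, the lung form of subunit 4, at 3.71 CPM per kilobase. Assembly factors reached 139 CPM per kilobase (Uqcc2, which supports cytochrome b synthesis) and 123 CPM per kilobase (the copper chaperone Cox17), while most lay between 2.38 and 55.4 CPM per kilobase. Cytochrome c itself stood at 62.6 CPM per kilobase.

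**Figure D1:**
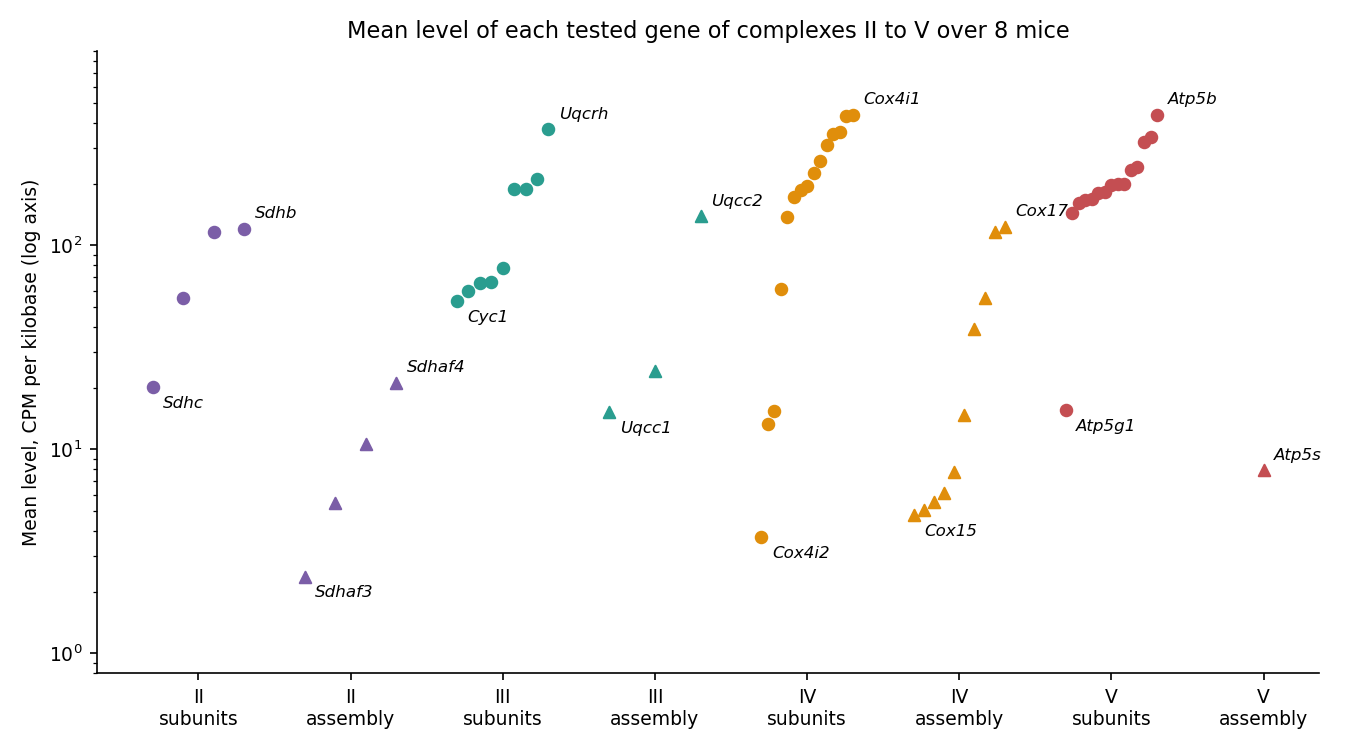
Mean level over 8 mice, in CPM per kilobase of principal transcript on a log axis, for each tested gene of complexes II, III, IV and V, with circles for subunits and triangles for assembly factors (Cycs and Atp5sl are not drawn). The subunits of complex II lie between 20.2 and 121 CPM per kilobase, while Cox4i1 and Atp5b reach 437.

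Promoter windows of 250 bases before to 50 bases after the start were taken from RefSeq (GRCm38.p6), which held 52 of the 65 members. Windows are shown for a pair of members with the NRF1 motif, Uqcr11 and Cox6a1, whose groups of mice did not overlap, and for the muscle isoforms Cox7a1 and Cox8b, which had the highest positive log2 fold changes. No window was at hand for Cox6a2. They read, 5′ to 3′ with NRF1 and GABP motifs in capitals:
Uqcr11: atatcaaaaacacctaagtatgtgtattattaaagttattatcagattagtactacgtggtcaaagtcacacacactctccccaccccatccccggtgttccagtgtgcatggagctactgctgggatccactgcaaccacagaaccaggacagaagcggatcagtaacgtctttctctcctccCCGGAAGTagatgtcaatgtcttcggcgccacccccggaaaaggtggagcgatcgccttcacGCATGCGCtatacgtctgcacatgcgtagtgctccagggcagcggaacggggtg
Cox6a1: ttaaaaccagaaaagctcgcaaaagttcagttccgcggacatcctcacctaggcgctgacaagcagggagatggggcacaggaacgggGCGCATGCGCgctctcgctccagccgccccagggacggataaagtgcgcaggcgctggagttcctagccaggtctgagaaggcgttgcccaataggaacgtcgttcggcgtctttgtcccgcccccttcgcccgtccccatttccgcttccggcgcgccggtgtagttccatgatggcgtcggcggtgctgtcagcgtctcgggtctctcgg
Cox7a1: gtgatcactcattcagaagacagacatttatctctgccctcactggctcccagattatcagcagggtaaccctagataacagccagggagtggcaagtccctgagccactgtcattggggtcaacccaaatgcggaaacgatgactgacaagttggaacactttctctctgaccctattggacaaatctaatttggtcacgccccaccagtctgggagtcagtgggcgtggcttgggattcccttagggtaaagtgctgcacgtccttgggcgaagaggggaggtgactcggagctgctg
Cox8b: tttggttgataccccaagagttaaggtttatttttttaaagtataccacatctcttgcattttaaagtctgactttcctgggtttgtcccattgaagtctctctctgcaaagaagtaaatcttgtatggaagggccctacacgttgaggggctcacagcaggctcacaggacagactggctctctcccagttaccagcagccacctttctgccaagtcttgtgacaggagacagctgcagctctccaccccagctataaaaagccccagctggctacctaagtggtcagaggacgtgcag

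The windows lie at chr10:80406772-80407071 for Uqcr11, chr5:115348909-115349208 for Cox6a1 and chr7:140900397-140900696 for Cox8b, all on the minus strand, and at chr7:30183921-30184220 for Cox7a1 on the plus strand. Nuclear respiratory factor 1 (NRF1) and GA-binding protein (GABP) are known activators of respiratory chain genes. The letters searched on both strands were GCGCATGC for NRF1, CCGGAAGT for GABP, TCAAGGTCA for estrogen-related receptors and GGGCGG for SP1, and the MEF2 consensus was searched too. The NRF1 letters were in 8 of 52 member windows (15.4%), beside 2.78% of all 27025 windows. Those of GABP were in 7 (13.5%), beside 3.93%, and those of estrogen-related receptors in 2 (3.85%), beside 0.407%. SP1 letters, which were not put in capitals, were in 26 (50%), beside 35.6%, and the MEF2 motif was in none of the 52, beside 3.24%. Uqcr11 held the GABP letters at bases 185 to 192 of its window and the NRF1 letters at bases 247 to 254 on the opposite strand. Cox6a1 held the NRF1 letters on both strands in overlapping places, bases 89 to 96 and 91 to 98, since the motif nearly reads the same on either strand. Cox7a1 and Cox8b held none of the NRF1, GABP, estrogen-related receptor or MEF2 motifs. The windows of Atp5d and Atp5e, which are not shown, held none of these either, although the groups of mice did not overlap for these genes. The relation of the motifs to the genotype difference was not tested. Median GC content was 57.7% in the member windows and 52.7% in all, and its part in the motif shares was not tested.

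In the comparison of Opa1+/- with WT mice, no member passed an adjusted p under 0.05 in edgeR's quasi-likelihood test or in DESeq2, where 5 of all 19366 genes tested (0.0258%) passed in edgeR and 25 (0.129%) in DESeq2. The log2 fold changes lay mostly on the positive side. At an unadjusted p under 0.05 in edgeR, 12 members were higher in Opa1+/- mice and 0 were lower, which is 19.0% of the members beside 3.51% of all genes higher and 3.22% lower. DESeq2 also gave 12 higher and 0 lower, beside 2.73% of all genes higher, and 11 of its genes were among the 12 of edgeR. The log2 fold change was positive for 50 members and negative for 13, beside 9709 and 9657 of all genes. The median was 0.09, beside 0.00 over all genes. In 4 members the lowest Opa1+/- value exceeded the highest WT value (6.35% of the members, beside 1.98% of all genes), and in 1 member the order was the opposite (beside 2.33%).

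These counts rested on few mice. Without Het_491 the members higher at an unadjusted p under 0.05 numbered 4, beside 2.39% of all genes. Without WT_8 they numbered 4, beside 1.76% of all genes, and 1 member was lower, beside 1.96%. They numbered 6 without Het_2 (beside 3.48% of all genes), 7 without Het_7 (3.61%) and 16 without WT_5 (3.37%). Of the 12 members, Uqcr11, Atp5e, Atp5d and Atp5k stayed under 0.05 in each of the 8 fits that left out a mouse. Cox6a1 did so in 6 of these fits, Atp5j2 in 5, Cox17 in 4, Cyc1 and Uqcrq in 3, Uqcr10 and Cox8b in 2 and Cox7a1 in 1. The 12 were picked by their p in these same mice, so these counts are no independent support. The share of all genes picked in this way that stayed under 0.05 was not computed. With DESeq2 size factors 9 members were higher and 1 was lower at that p, beside 3.29% and 3.55% of all genes. With total counts 12 were higher and 2 lower, beside 2.37% and 4.02% of all genes, whose median log2 fold change was then -0.03. Under these scalings 48 and 47 of 63 members were positive. The median member stood 0.17 below the mean of the 8 mice on the log2 scale in WT_8 and 0.15 above it in Het_491, and between -0.03 and 0.05 in the other 6 mice. The 14 erythroid markers found in the files summed to 21900, 12750, 9170 and 8106 CPM in WT_4, WT_5, WT_6 and WT_8, and to 15880, 15470, 18900 and 25510 CPM in Het_2, Het_7, Het_484 and Het_491 (exact permutation p = 0.171, two-sided). That sum was lowest in WT_8 and highest in Het_491, as the members were, but it was next highest in WT_4, where the median member stood at -0.02. Of these markers 13 had positive log2 fold changes, with a median of 0.51, and 0 had an unadjusted p under 0.05. Schwann cell and myelin markers were positive in 10 of 10, with a median of 0.20, and 1 of them, Egr2, had an unadjusted p under 0.05 and groups that did not overlap. Their sum ran from 3481 to 4723 CPM in the WT group and from 4156 to 5611 CPM in the Opa1+/- group. The part of either list in the members' differences was not tested.

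**Figure D2:**
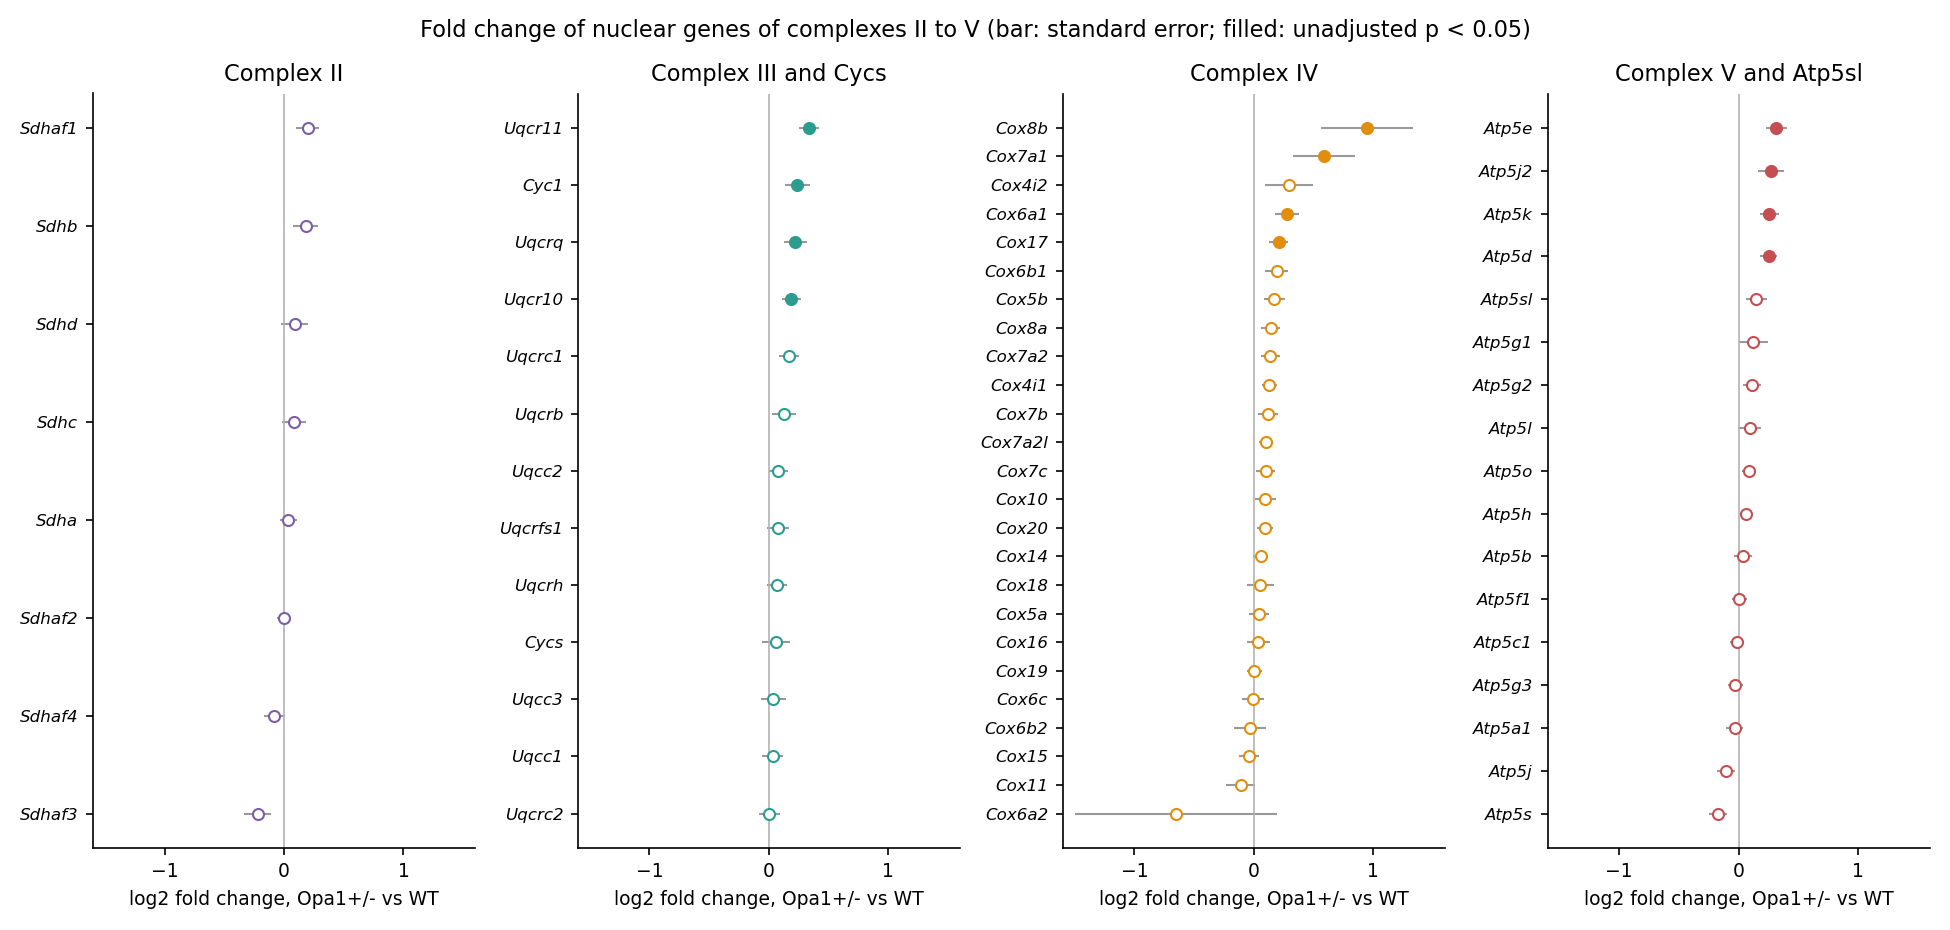
Log2 fold change of Opa1+/- against WT for each tested gene, by complex, with bars for the standard error and filled points for an unadjusted edgeR p under 0.05. Of the 63 genes, 12 are filled and all of these lie above 0, while Cox6a2 at -0.65 has the widest bar.

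In complex II, 0 of 8 genes had an unadjusted p under 0.05 in edgeR or DESeq2, and the median log2 fold change was 0.06, which was 0.01 without WT_8 and 0.13 without WT_5. All 4 subunits had small positive values. Sdha, the flavoprotein that oxidizes succinate, was at 334 ± 28.5 CPM in the WT group and 342 ± 15.9 CPM in the Opa1+/- group (SD, n = 4 each), a log2 fold change of 0.04 ± 0.07. Sdhb was at 129 ± 20.02 and 146 ± 6.49 CPM, a log2 fold change of 0.18 ± 0.10. The anchors Sdhc and Sdhd had log2 fold changes of 0.09 ± 0.10 and 0.09 ± 0.11. With a mouse left out, Sdha ran from 0.0005 to 0.10, Sdhb from 0.11 to 0.27, Sdhc from 0.03 to 0.16 and Sdhd from 0.03 to 0.20. Among the 4 assembly factors, which are named here after their values were seen, Sdhaf1 had the highest log2 fold change (0.20 ± 0.10) and Sdhaf3 the lowest (-0.22 ± 0.11). Both of these help to mature the iron-sulfur protein Sdhb, and in each the groups overlapped.

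Complex III had positive log2 fold changes in 12 of 12 genes, beside 9709 of all 19366 genes tested. Its median was 0.10, and 0.17 over its 9 subunits, though Uqcrc2 at 0.00 was negative under other scalings. The median of 0.10 was 0.05 without WT_8, 0.19 without WT_5 and 0.03 after removal of each mouse's trend of expression on transcript length, an alternative added after the data were seen. Those with an unadjusted p under 0.05 (beside 3.51% of all genes higher) were 4 subunits: Uqcr11, Uqcr10, Uqcrq and Cyc1. The first 3 code for small accessory subunits, and cytochrome c1 carries the haem that hands electrons to cytochrome c.

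Uqcr11 (chromosome 10, 80402997 to 80406830 in GRCm38) was at 82.2, 75.3, 70.8 and 68.0 CPM in WT_4, WT_5, WT_6 and WT_8, and at 99.2, 84.4, 90.7 and 99.4 CPM in Het_2, Het_7, Het_484 and Het_491. The groups did not overlap, although the lowest Opa1+/- mouse lay close to the highest WT mouse. Its log2 fold change was 0.34 ± 0.08, the lowest p of the set (edgeR adjusted p = 0.722, DESeq2 adjusted p = 0.129). It passed an unadjusted p under 0.05 in 18 of 18 alternative settings, with log2 fold changes from 0.22 to 0.39. These settings reuse the mice by which the gene was picked, so they are no independent support.

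Cyc1 was at 70.4, 87.7, 78.2 and 60.8 CPM in the WT mice and at 87.5, 90.6, 81.6 and 91.0 CPM in the Opa1+/- mice, in the same order of animals. The groups overlapped, since WT_5 was as high as the Opa1+/- mice, and the log2 fold change was 0.24 ± 0.10 (edgeR adjusted p = 0.732). It was 0.15 without WT_8. Uqcr10 and Uqcrq had log2 fold changes of 0.19 ± 0.08 and 0.22 ± 0.10, with overlapping groups, and without WT_8 these were 0.13 and 0.14. Uqcrc2, a core protein, was the lowest of the complex at 0.00 ± 0.09, and Uqcrh had a log2 fold change of 0.06 ± 0.08. The 3 assembly factors lay between 0.03 and 0.08. Cycs, the carrier between complexes III and IV, was at 192 ± 27.99 CPM in the WT group and 199.5 ± 23.4 CPM in the Opa1+/- group, a log2 fold change of 0.06 ± 0.12.

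**Figure D3:**
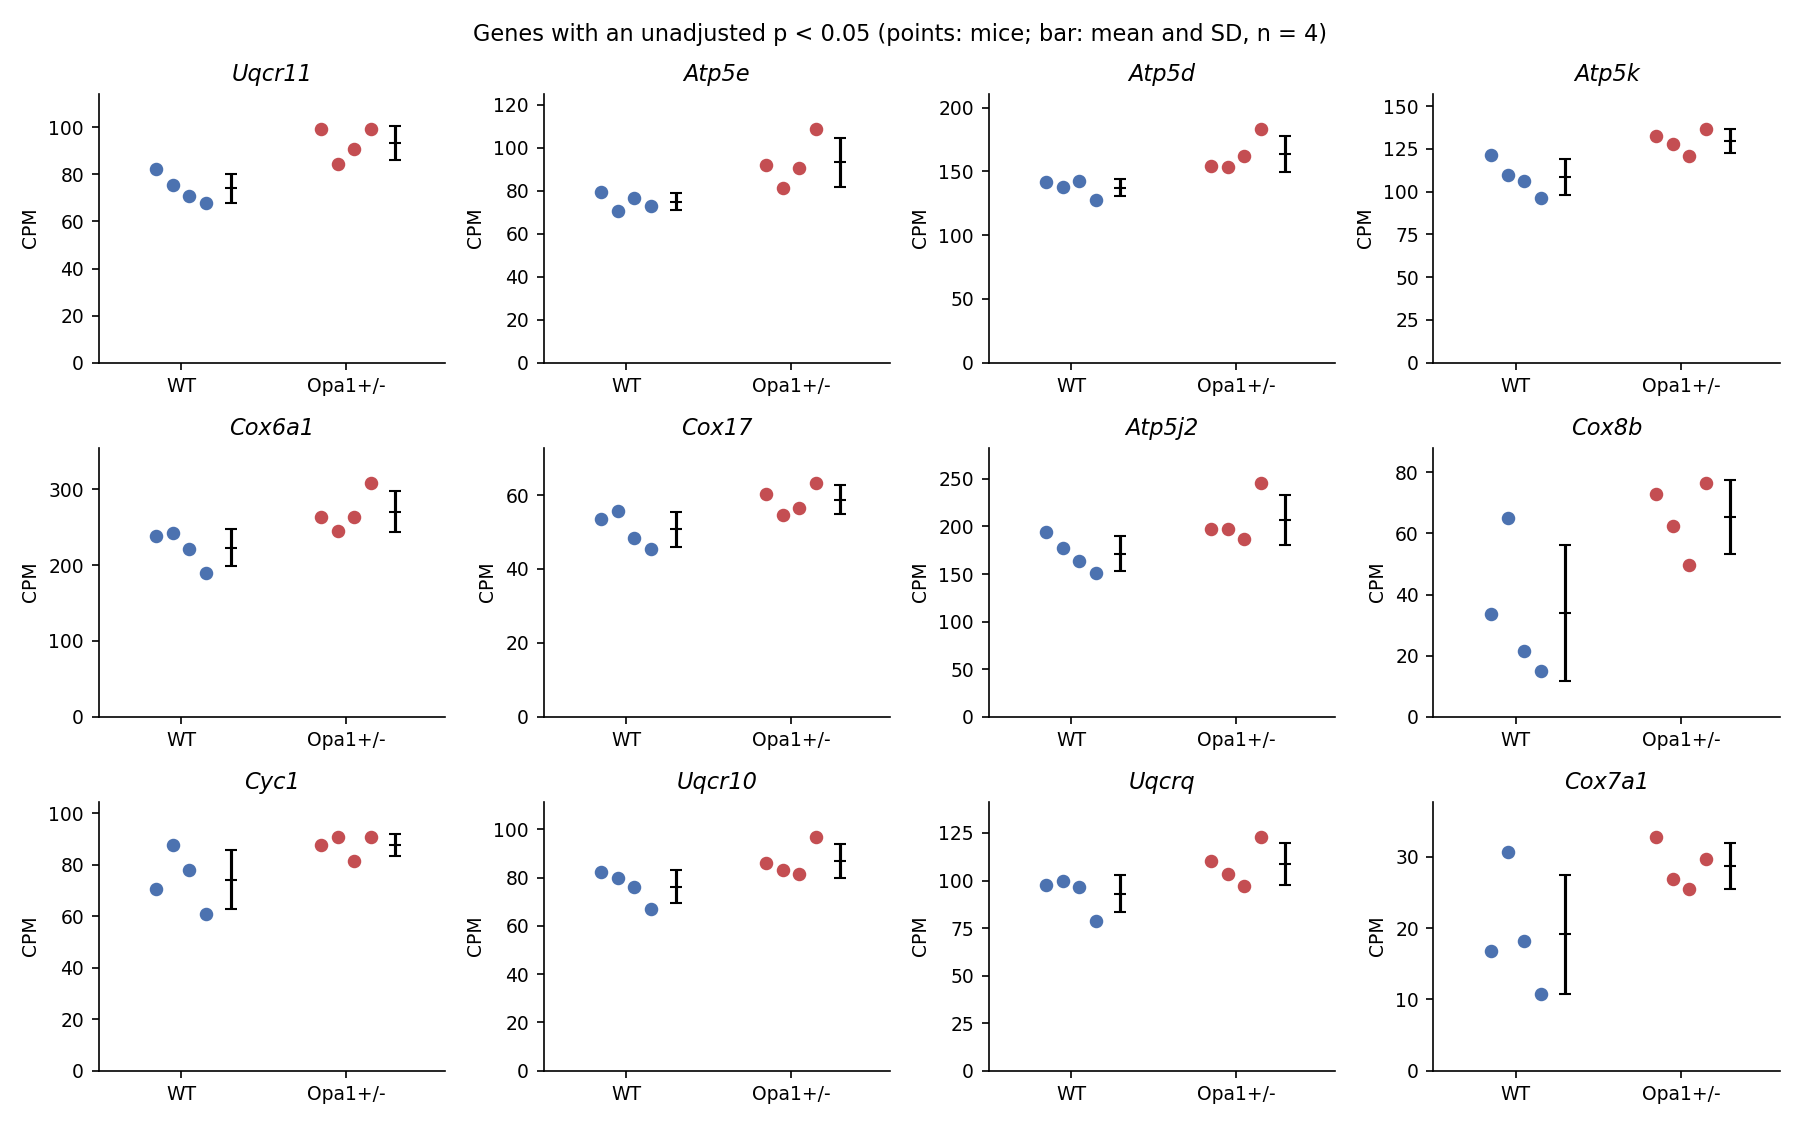
CPM of the 12 genes with an unadjusted edgeR p under 0.05, with a point for each mouse (from left to right WT_4, WT_5, WT_6, WT_8 and Het_2, Het_7, Het_484, Het_491), the mean and the SD (n = 4). The groups do not overlap for Uqcr11, Atp5e, Atp5d and Cox6a1, and overlap for the other 8 genes.

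Complex V had positive values in 11 of 16 genes, beside 9709 of all 19366, with a median log2 fold change of 0.07. An unadjusted p under 0.05 was found for 4 subunits, all higher, beside 3.51% of all genes higher. The median was 0.03 without Het_491 and -0.01 with the length trend of each mouse removed. Atp5d and Atp5e code for the delta and epsilon subunits, which sit with the gamma subunit in the central stalk that turns inside the catalytic head. Atp5k and Atp5j2 code for the membrane subunits e and f.

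Atp5e (chromosome 2, 174461072 to 174464105) was at 79.5, 70.4, 76.6 and 73.0 CPM in the WT mice and at 92.0, 81.2, 90.6 and 109 CPM in the Opa1+/- mice. Atp5d (chromosome 10, 80138632 to 80145818) was at 141, 138, 143 and 127 CPM in the WT mice and at 154, 154, 162 and 184 CPM in the Opa1+/- mice. In both genes the groups did not overlap and Het_491 was the highest of the 8. Their log2 fold changes were 0.32 ± 0.09 (edgeR adjusted p = 0.722) and 0.25 ± 0.07 (edgeR adjusted p = 0.722). The gamma subunit gene Atp5c1, named here after its value was seen, had a log2 fold change of -0.02 ± 0.06.

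Atp5k was at 122, 110, 106 and 96.2 CPM in the WT mice and at 133, 128, 121 and 137 CPM in the Opa1+/- mice, so that only WT_4 and Het_484 broke the order. Its log2 fold change was 0.26 ± 0.08 (edgeR adjusted p = 0.722). Atp5j2 had a log2 fold change of 0.27 ± 0.11, with Het_491 at 246 CPM and the other Opa1+/- mice at 187 to 197 CPM. Without Het_491 it was 0.17.

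The catalytic gene Atp5b was at 826 ± 66.7 CPM in the WT group and 848 ± 40.4 CPM in the Opa1+/- group (log2 fold change 0.04 ± 0.07). The member with all its Opa1+/- values below the WT values was Atp5s, whose protein resembles coupling factor B of ATP synthase. It was at 12.7, 11.9, 13.1 and 12 CPM in the WT mice and at 11.1, 10.98, 10.6 and 11.4 CPM in the Opa1+/- mice, a log2 fold change of -0.17 ± 0.08 (edgeR adjusted p = 0.741). Atp5sl had a log2 fold change of 0.15 ± 0.09.

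Atp5g1, Atp5g2 and Atp5g3 code for the same mature subunit c, which forms the ring in the membrane. Atp5g3 gave most of the counts of the 3 genes, from 50.1% to 57.2% per mouse, while Atp5g1 gave 20.02% to 25.4% and Atp5g2 gave 21.3% to 24.5%. Per kilobase Atp5g1 gave 3.11% to 4.11%, since its principal transcript is 4715 bases long and those of Atp5g2 and Atp5g3 are 441 and 714 bases long. Which transcript of Atp5g1 these cochleae use was not tested, so its share per kilobase rests on that annotated length. The share of Atp5g3 was 55.3 ± 1.86% in WT and 52.8 ± 2.10% in Opa1+/- mice (SD, n = 4), with overlapping groups. The log2 fold changes were 0.12 ± 0.12, 0.11 ± 0.08 and -0.03 ± 0.06 for Atp5g1, Atp5g2 and Atp5g3.

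Complex IV had positive values in 20 of 25 tested genes, beside 9709 of all 19366. Its median log2 fold change was 0.10 (0.06 without WT_8 and 0.03 with the length trend removed). It held both the highest and the lowest fold changes of the whole set. Those with an unadjusted p under 0.05 (beside 3.51% of all genes higher) were the subunit genes Cox6a1, Cox7a1 and Cox8b and the copper chaperone Cox17. Cox17 was at 50.8 ± 4.73 CPM in the WT group and 58.7 ± 3.93 CPM in the Opa1+/- group, with overlapping groups and a log2 fold change of 0.21 ± 0.08, and 257 bases of its exons also belong to Gm21987. The other 9 assembly factors had log2 fold changes from -0.11 to 0.10.

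Cox6a1 (chromosome 5, 115345642 to 115348981) was at 239, 242, 221 and 190 CPM in the WT mice and at 263, 245, 264 and 309 CPM in the Opa1+/- mice. The groups did not overlap, but WT_5 and Het_7 were nearly equal. The log2 fold change was 0.28 ± 0.10 (edgeR adjusted p = 0.722). Its partner in heart and skeletal muscle, Cox6a2 (chromosome 7, 128205435 to 128206387), was at 7.19, 3.42, 27.9 and 6.12 CPM in the WT mice and at 3.31, 14.0, 10.2 and 0.383 CPM in the Opa1+/- mice. The spread was wide in both groups, and the log2 fold change of -0.65 ± 0.84 (edgeR adjusted p = 0.904) turned to 0.34 without WT_6. Cox6a2 gave from 0.124% (Het_491, 6 counts) to 11.2% (WT_6, 467 counts) of the counts of the 2 genes.

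Cox8b (chromosome 7, 140898945 to 140900446), the muscle form of subunit 8, was at 33.7, 65.1, 21.6 and 15.0 CPM in the WT mice and at 72.8, 62.5, 49.5 and 76.7 CPM in the Opa1+/- mice. WT_5 lay among the Opa1+/- mice and the other WT mice lay below them. The log2 fold change of 0.95 ± 0.38 (edgeR adjusted p = 0.727, with an unadjusted p under 0.05 in edgeR and over it in DESeq2) was the highest of the set. It was 0.70 without WT_8 and 1.48 without WT_5. Its share of the counts of Cox8b and Cox8a was 14.5 ± 7.08% in WT and 23.9 ± 2.34% in Opa1+/- mice (SD, n = 4).

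Cox7a1 (chromosome 7, 30184144 to 30186078), the muscle form of subunit 7a, was at 16.8, 30.6, 18.2 and 10.8 CPM in the WT mice and at 32.8, 26.9, 25.5 and 29.7 CPM in the Opa1+/- mice. WT_5 again lay among the Opa1+/- mice. The log2 fold change was 0.59 ± 0.26 (edgeR adjusted p = 0.735), 0.38 without WT_8 and 0.91 without WT_5. Its share of the counts of Cox7a1 and Cox7a2 was 13.7 ± 4.75% in WT and 18.2 ± 1.64% in Opa1+/- mice. The liver forms Cox7a2 and Cox8a had log2 fold changes of 0.14 ± 0.08 and 0.14 ± 0.08, which were 0.066 and 0.075 without Het_491.

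The remaining pairs held little of the tissue form. Cox4i2 gave 0.622% to 1.06% of the counts of subunit 4 per mouse, with 385 counts in all 8 mice, and Cox4i1 had a log2 fold change of 0.13 ± 0.06 beside 0.29 ± 0.20 for Cox4i2. Cox6b2, the testis form of subunit 6b, gave 3.11% to 5.37%, with a log2 fold change of -0.03 ± 0.13 beside 0.19 ± 0.09 for Cox6b1. Cox7b2 gave 0.0181% to 0.205% beside Cox7b (log2 fold change 0.12 ± 0.09), with 36 counts in all 8 mice. Cox8c had 3 counts in all 8 mice, a level at the limit of counting. The 6 germ cell markers summed to at most 0.228 CPM in any mouse.

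The muscle isoforms differed in their order over the mice. Cox6a2 was highest in WT_6, where Cox8b and Cox7a1 were low, and lowest in Het_491, where they were high, while in Het_7 and Het_484 all 3 stood above most WT mice. Subunits 7a1 and 8b are also known as forms of brown fat, so their levels were set beside sums of skeletal muscle and brown adipocyte markers. The 20 skeletal muscle markers summed to 732, 432, 3507 and 917 CPM in the WT mice and to 451, 1840, 1312 and 79.4 CPM in the Opa1+/- mice (exact permutation p = 0.714, two-sided). The 8 brown adipocyte markers summed to 443, 1014, 136 and 180 CPM in the WT mice and to 874, 791, 596 and 888 CPM in the Opa1+/- mice (exact permutation p = 0.171, two-sided). Ucp1, the uncoupling protein that defines brown adipocytes, ran from 1.08 to 192 CPM in the WT group and from 88.5 to 174 CPM in the Opa1+/- group, and no marker of either list was at 0 in all mice. The list also holds Ppargc1a, which many tissues express, and Fabp4, Adipoq and Plin1, which are not confined to brown adipocytes. On average Fabp4 gave the largest part of the sum, 210 of 443 CPM in the WT group and 420 of 787 CPM in the Opa1+/- group. The sum is therefore not particular to brown fat. The heart muscle markers summed to 32.4 to 40.0 CPM over all mice.

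Across the 8 mice Cox6a2 followed the skeletal muscle sum on the log scale (Pearson r = 0.993, exact permutation p = 9.92e-05, adjusted over 12 relations p = 0.00119; Spearman rho = 0.952, exact permutation p = 0.00114, adjusted p = 0.0137). Without the 2 mice farthest from the median of that sum, r was 0.975. Cox8b followed the brown adipocyte sum (r = 0.954, exact permutation p = 0.00159, adjusted p = 0.00952; rho = 0.905, exact permutation p = 0.00456, adjusted p = 0.0183), with r = 0.940 without the 2 farthest mice. Cox7a1 followed it too (r = 0.851, exact permutation p = 0.00995, adjusted p = 0.0398; rho = 0.857, exact permutation p = 0.0107, adjusted p = 0.0321), with r = 0.931 without those mice. Against the other list the r was -0.559 for Cox6a2, -0.545 for Cox8b and -0.400 for Cox7a1, none with an exact permutation p under 0.05. These values hold the difference between genotypes as well as the spread within them. Taken as deviations from the mean of each genotype, an alternative added after the data were seen, r over the 8 mice was 0.993 for Cox6a2 with the skeletal muscle sum (exact permutation p = 0.00347 over 576 pairings within groups, adjusted p = 0.0417). For the brown adipocyte sum it was 0.932 for Cox8b (exact permutation p = 0.0156, adjusted p = 0.0938) and 0.754 for Cox7a1 (exact permutation p = 0.219, adjusted p = 0.262). So the relation of Cox6a2 passed the adjusted threshold within genotypes, and those of Cox8b and Cox7a1 did not. Among the liver forms, r was -0.778 for Cox8a with the skeletal muscle sum (exact permutation p = 0.031, adjusted p = 0.0621), 0.759 for Cox8a with the brown adipocyte sum (exact permutation p = 0.023, adjusted p = 0.0572) and 0.757 for Cox6a1 with the brown adipocyte sum (exact permutation p = 0.0238, adjusted p = 0.0572). Without the 2 farthest mice these r were -0.463, 0.641 and 0.323. None of these relations passed after adjustment as Pearson's r over the 8 mice, and within genotypes the adjusted exact permutation p was 0.15, 0.15 and 0.262. By rank, Cox8a followed the brown adipocyte sum (rho = 0.905, exact permutation p = 0.00456, adjusted p = 0.0183). The part of brown adipocyte RNA in the differences of Cox8b and Cox7a1 between genotypes was not tested.

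**Figure D4:**
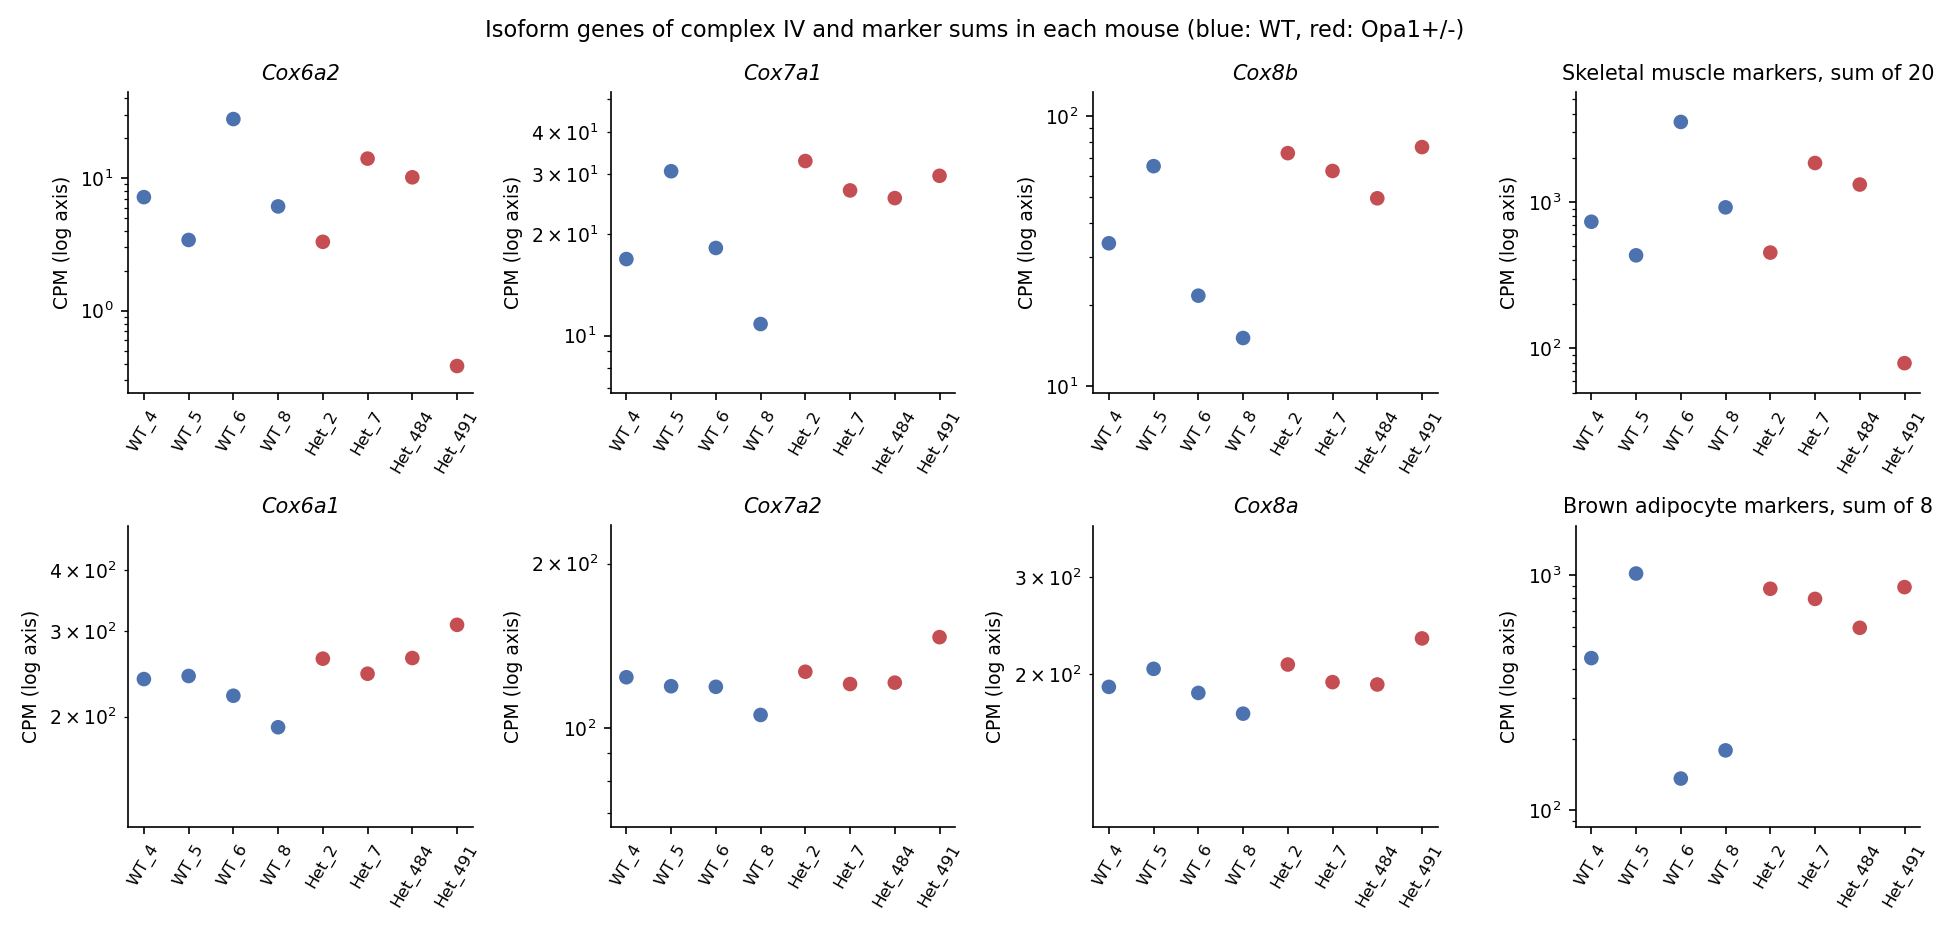
CPM on log axes in each mouse for the muscle forms Cox6a2, Cox7a1 and Cox8b (top), the liver forms Cox6a1, Cox7a2 and Cox8a (bottom) and the summed markers of skeletal muscle and brown adipocytes (right). Cox6a2 and the skeletal muscle sum are highest in WT_6 (27.9 and 3507 CPM) and lowest in Het_491 (0.383 and 79.4 CPM), while Cox8b, Cox7a1 and the brown adipocyte sum are low in WT_6 and WT_8.

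Fold changes of other coding genes fell with the length of their transcripts, and many members are short. The median length of the principal transcript was 865 bases for the 63 tested members and 2911 bases for the 15403 other coding genes tested. Among these other genes the median log2 fold change was 0.14 under 600 bases, 0.06 from 600 to under 1000, 0.03 from 1000 to under 2000, -0.01 from 2000 to under 4000 and -0.06 at 4000 bases and over. The Spearman correlation of length with log2 fold change was -0.291 across the other genes and -0.399 across the members, given as a description since genes share the same 8 libraries. Of the 12 members with an unadjusted p under 0.05, 8 were under 600 bases long. In that class 8 of 18 members had such a p and a positive change, beside 11.1% of 235 other genes, and the medians were 0.13 and 0.14. From 600 to under 1000 bases 2 of 16 members had one, beside 7.15% of other genes, and from 1000 to under 2000 bases 2 of 15 had one, beside 2.67%. In the longer classes it was 0 of 11 members, beside 1.77%, and 0 of 3, beside 0.853%. Groups without overlap, with Opa1+/- higher, were found in 3 of 18 members under 600 bases, beside 4.26% of other genes. From 600 to under 1000 bases it was 1 of 16 members, beside 5.49%, and no longer member was among them.

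Per mouse, the median of other coding genes under 600 bases stood at 0.05, -0.10, -0.07 and -0.13 from the mean of the 8 mice on the log2 scale in WT_4, WT_5, WT_6 and WT_8, and at 0.00, -0.03, 0.11 and 0.16 in Het_2, Het_7, Het_484 and Het_491. The groups overlapped, since WT_4 lay above Het_2 and Het_7. Members under 1000 bases stood at -0.02, -0.01, -0.05 and -0.19 in the WT mice and at 0.08, 0.00, 0.00 and 0.20 in the Opa1+/- mice. Both sets were lowest in WT_8 and highest in Het_491. Their length limits differ, under 600 bases for other genes and under 1000 for members, so their values in the other mice are not directly comparable. Members of 1000 bases or more stood at -0.02, 0.07, 0.02 and -0.13 in the WT mice and at 0.02, 0.05, -0.02 and 0.06 in the Opa1+/- mice, so that they were lowest in WT_8 and highest in WT_5. With the length trend of each mouse removed, 4 members were higher at an unadjusted p under 0.05 in edgeR (Uqcr11, Atp5e, Atp5d and Cox6a1) and 2 were lower (Atp5j and Atp5s), beside 2.53% of all genes higher and 2.39% lower. The log2 fold changes of those 4 higher members were then 0.22, 0.19, 0.18 and 0.17. The other 8 of the 12 no longer had such a p. Among these, Atp5k went from 0.26 to 0.13, Cox17 from 0.21 to 0.09 and Uqcr10 from 0.19 to 0.07, while Atp5j2, Cyc1, Uqcrq, Cox7a1 and Cox8b were at 0.20, 0.20, 0.19, 0.46 and 0.81. Positive values then numbered 40 of 63.

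**Figure D5:**
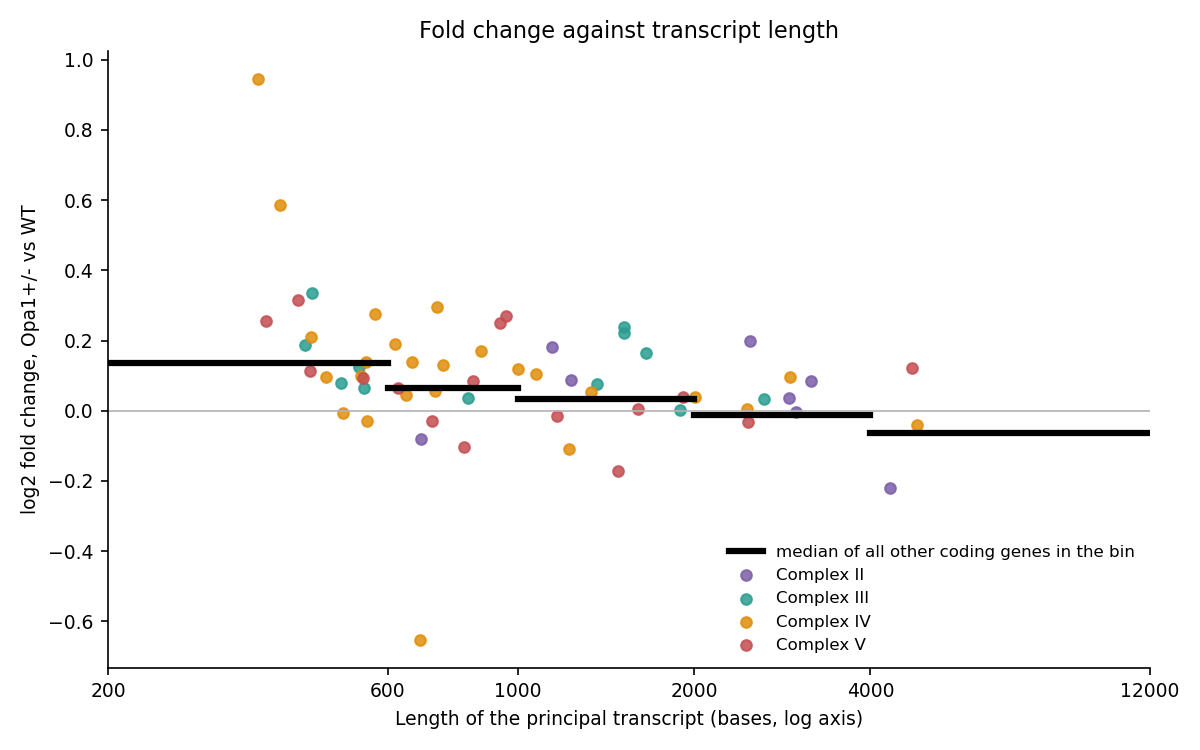
Log2 fold change of Opa1+/- against WT for the genes of complexes II to V against the length of the principal transcript in bases on a log axis, with black bars for the median of all other coding genes in each length class. The bars step down from 0.14 under 600 bases to -0.06 at 4000 bases and over (Cycs and Atp5sl are not drawn).

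The mitochondrially encoded partners of complexes III, IV and V are mt-Cytb, mt-Co1, mt-Co2, mt-Co3, mt-Atp6 and mt-Atp8. They had positive log2 fold changes in 6 of 6 genes, from 0.02 ± 0.13 for mt-Co1 to 0.11 ± 0.14 for mt-Cytb, with a median of 0.08, and 0 had an unadjusted p under 0.05 in edgeR or DESeq2. Their direction was not stable, since each of the 6 was negative under at least 1 alternative, 5 of them without WT_8 (all but mt-Co2) and 4 with the length trend removed (all but mt-Atp6 and mt-Cytb). They summed to between 72350 and 105800 CPM in the WT group and between 85570 and 109300 CPM in the Opa1+/- group. For complex IV, mitochondrially encoded CPM were 27.9 ± 2.01 times the nuclear subunit CPM in WT and 25.8 ± 1.45 times in Opa1+/- mice (SD, n = 4), with overlapping groups. The ratio was 17.2 ± 1.82 and 16.9 ± 1.72 for complex III and 6.62 ± 0.880 and 6.76 ± 0.595 for complex V, again with overlapping groups. Among 32 tested entries for 31 other assembly factors and subunits of complexes II to V (the symbol Smim20 stands for 2 entries), 1 was higher at an unadjusted p under 0.05 (3.12%), a share near the 3.51% of all genes. It was Pet100, a complex IV assembly factor, with a log2 fold change of 0.26 ± 0.08 (edgeR adjusted p = 0.722), and the median of the list was 0.06.

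As summed CPM, the nuclear subunits were at 591 ± 62.2 in WT and 625 ± 30.1 in Opa1+/- mice for complex II, at 949 ± 91.3 and 1045 ± 64.8 for complex III, at 1920 ± 172 and 2148 ± 140 for complex IV, and at 3204 ± 135 and 3340 ± 121 for complex V (SD, n = 4 each). The groups overlapped in each complex, and WT_8 had the lowest sum in each.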

How the data were processed

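RNA seq of cochleae was compared between 4 WT and 4 Opa1+/- mice, grouped by their labels. The authors prepared CORALL libraries, read them as pairs of 80 nucleotides with molecular identifiers, mapped them to GRCm38 with STAR and deposited raw counts, whole numbers per gene symbol, for each mouse. The counting program and its use of strand are not given in the sources used here, so counts of genes that overlap (22 members share exon bases with another gene) or have near-identical copies are uncertain. The 15 entries with a number in place of a symbol held 0.112% to 0.124% of counts and were left out, and 6 pseudogene entries with -ps were excluded.

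Genes with a mean DESeq2-normalized count over 10 (19366 entries with 19331 distinct symbols) were tested with edgeR 4.0.16 (quasi-likelihood, TMM, not robust, Benjamini-Hochberg over all genes), with depth from 15978051 to 20828030 counts setting the precision. The standard error was taken as the size of a log2 fold change over the root of its F statistic. Correlations used log2 CPM and all 40320 pairings of 8 mice (576 within genotypes), group comparisons of marker sums used all 70 arrangements, whose smallest p is 0.0286, and the spread between mice may be partly technical. Lengths are those of the APPRIS principal transcript. Alternatives were DESeq2 1.42.0, limma 3.58.1 voom with quality weights, other scalings and filters, robust estimation, mice left out and, added after the data were seen, removal of each mouse's length trend and of genotype means in the correlations. The tests were checked on simulated counts. Figures were drawn with matplotlib 3.10.9 in Python 3.11.15, and tests ran in R 4.3.3.

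The members and lists were chosen with earlier results of these data known. Named genes were all complex II subunits, the subunits of complexes III, IV and V with the highest and lowest level per kilobase, their members with the highest and lowest log2 fold change, isoform pairs, ring genes, Cycs, members with an unadjusted p under 0.05, Opa1 and the mitochondrially encoded partners. Other members and list genes were named after their values were seen.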

Additional observations from a re-analysis of the deposited data

Results flagged for a closer look

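In 5 of 104 groups of 4 mice examined, a single mouse stood apart from the other 3 by Dixon's test, where chance gives about 1 in 20. Cox6a2 was at 27.9 CPM in WT_6 and between 3.42 and 7.19 CPM in the other WT mice. The skeletal muscle marker sum was at 3507 CPM in WT_6 and between 432 and 917 CPM in the other WT mice, which is the same animal. Atp5b was at 787 CPM in Het_484 and between 866 and 869 CPM in the other Opa1+/- mice. Uqcrq was at 78.7 CPM in WT_8 and between 96.7 and 99.7 CPM in the other WT mice. Atp5j2 was at 246 CPM in Het_491 and between 187 and 197 CPM in the other Opa1+/- mice.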

How the results depend on the processing

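No analysis paired by litter was possible because the labels do not place the WT and Opa1+/- mice in litters. No member passed the adjusted threshold of 0.05 under any alternative run, nor 0.1 in the edgeR fit as reported. The number of members with an unadjusted p under 0.05, 12 as reported, ran from 4 to 16 with a mouse left out, and was 3 without both Opa1+/- mice with 3-digit numbers (all higher, beside 1.46% of all genes higher and 1.44% lower) and 6 with the length trend removed. The number whose groups do not overlap, 5 as reported (beside 4.31% of all genes in either direction), ran from 5 without Het_2 (6.98%) to 17 without WT_5 (6.84%) with a mouse left out and was 15 without both of those mice (12.2%). With the length trend removed the medians of complexes II, III, IV and V were 0.041, 0.034, 0.034 and -0.010, against 0.06, 0.10, 0.10 and 0.07. With a mouse left out, complex II ran from 0.014 (without WT_8) to 0.13 (without WT_5), complex III from 0.052 (without WT_8) to 0.19 (without WT_5), complex IV from 0.065 (without WT_8) to 0.12 (without Het_7) and complex V from 0.029 (without Het_491) to 0.090 (without Het_484). The Opa1 log2 fold change ran from -0.90 to -0.83 with a mouse left out, and its adjusted p was 0.0704 without Het_2 (log2 fold change -0.85) and 0.26 without both mice with 3-digit numbers (-0.86).

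Among values of 38 named genes (tested members and 6 mitochondrially encoded partners, Opa1 apart) under 18 alternatives, 579 kept sign and side of an unadjusted p of 0.05, 61 rose above it, 8 fell below it and 36 changed sign, none of the last past the threshold. Uqcrc2 was at -0.0045 with DESeq2 size factors, -0.025 with total counts, -0.0044 in the DESeq2 test, -0.0020 in voom, -0.0024 with no filter and -0.019 with the length trend removed, and ran from -0.061 to 0.066 with a mouse left out. The length trend removal also turned Atp5g2 (-0.0068) and Uqcrh (-0.041). With a mouse left out, Cox6a2 ran from -1.26 (without Het_7) to 0.34 (without WT_6), Cox6b2 from -0.11 to 0.092, Atp5g3 from -0.063 to 0.016, Cycs from -0.013 to 0.16 (-0.00075 without Het_491) and Atp5b from -0.0042 to 0.079. Of the mitochondrially encoded partners, mt-Atp6 ran from -0.013 to 0.16, mt-Atp8 from -0.073 to 0.14, mt-Co1 from -0.071 to 0.14, mt-Co3 from -0.024 to 0.12 and mt-Cytb from -0.0064 to 0.20, each lowest without WT_8. Without Het_491 mt-Atp8, mt-Co1 and mt-Co3 were negative as well, without Het_7 mt-Atp8 and mt-Co1, and without WT_4 mt-Co1. The length trend removal turned mt-Atp8 (-0.13), mt-Co1 (-0.0095), mt-Co2 (-0.0057) and mt-Co3 (-0.013), and total counts turned mt-Co1 (-0.0010). Cox6b2 was 0.090 in voom, and Atp5g1 was -0.018 without both mice with 3-digit numbers. The causes were not tested. With 4 mice a group, the depth and the spread between mice (median 10.9% for members) limit what a change of the size seen here can pass.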
